A study of Mus musculus with 6 samples.

Results

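The genes described here are 8 that build the neuromuscular acetylcholine receptor and gather it into clusters: the receptor subunits Chrna1, Chrnb1, Chrnd and Chrng, the nerve- and muscle-derived clustering signal agrin (Agrn), the receptor tyrosine kinase MuSK (Musk), the scaffold rapsyn (Rapsn) and acetylcholinesterase (Ache). They were taken as every probe set whose only annotated gene symbol is among these 8, which gave 10 probe sets for 8 of the 12393 genes with a probe set of their own, 3 of them for Chrng. The cells were C2C12, an established mouse line of myoblasts that fuse into contractile myotubes, expanded in 20% fetal serum and held for 5 days in 2% horse serum. There were 2 groups of 3 arrays: myotubes given 500 µM palmitate, a saturated fatty acid carried on fatty acid-free albumin, for 16 h, and control myotubes given 1% bovine serum albumin (BSA) for the same time. Such cultures hold muscle cells of a single line with no motor nerve. The labels give replicate numbers but not whether each was a culture of its own. The p-values therefore cover no more than the spread among these arrays, which may be technical, and the number of arrays limits the precision.

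At the vertebrate neuromuscular junction, acetylcholine released by the motor nerve opens a pentameric cation channel, whose subunits in fetal and denervated muscle are alpha, beta, delta and gamma and in adult innervated muscle include epsilon in the place of gamma. Agrin binds the receptor LRP4, which activates MuSK, and MuSK then recruits and phosphorylates partners so that rapsyn packs receptors densely under the nerve ending. Acetylcholinesterase in the synaptic basal lamina ends the signal. Uninnervated myotubes in culture make the fetal form of the receptor, and genes of the subunits are classical targets of the myogenic factors MyoD and myogenin, which bind E-box elements in their promoters.

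Agrn was the only member that passed the test. Its transcript was 2.42-fold lower in palmitate-treated than in BSA-treated myotubes (95% confidence interval 1.88 to 3.13, n = 3 per group, limma adjusted p = 0.000315). The receptor subunits, Musk and Rapsn did not pass, with log2 fold changes (palmitate over BSA, by the brightest probe set of each gene) from -0.50 for Chrnd to -0.035 for Chrnb1. Of the 8 genes, 7 lay above the filter on dim signals and 1 of these 7 passed, beside 20.2% of the 7931 genes tested. In the lower direction the background was 12.3% (7.92% in the higher direction), and 3.3% of all genes tested lay at least as far below 0 as Agrn. The median of the 7 was -0.30, against -0.051 over all genes tested. Ache, the eighth gene, lay below the filter and was not tested. At an unadjusted p under 0.05, limma gave 2 of the 7, Agrn and Chrna1. The groups did not overlap for these same 2 genes of 7, beside 38.3% of all genes tested.

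**Figure D1:**
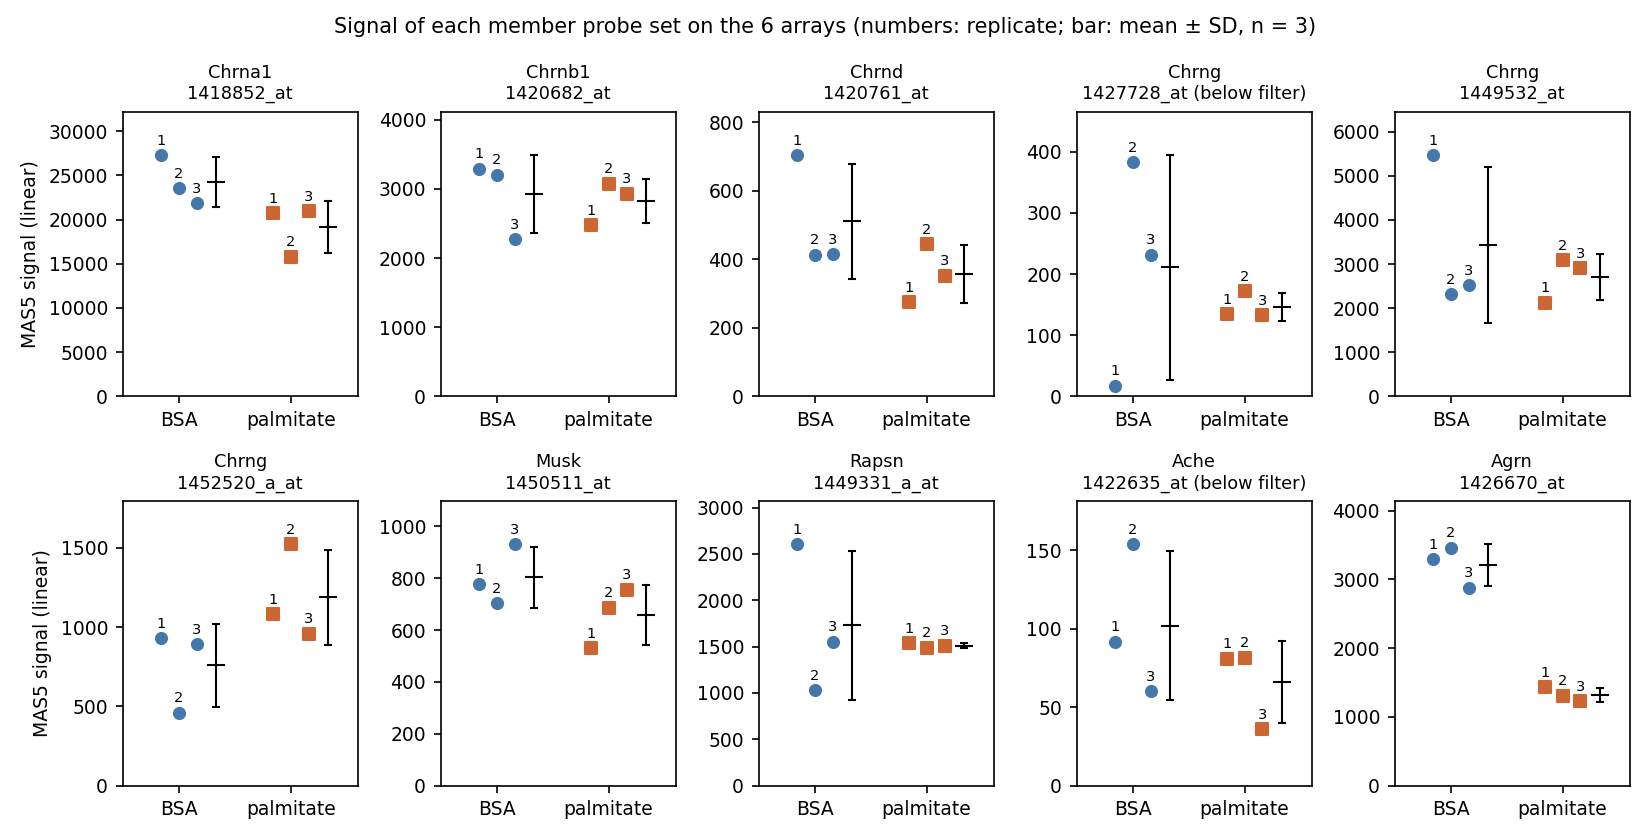
Signal of each of the 10 member probe sets (y axis, MAS5 signal on a linear scale from 0) on the 3 BSA arrays (blue circles) and the 3 palmitate arrays (orange squares), with the replicate number above each point and the mean ± SD (n = 3) in black. The 3 palmitate arrays of Agrn, at 1227.9 to 1433.9, lie far below its BSA arrays, at 2876.1 to 3459.4, while the groups overlap or nearly touch for the other genes' brightest probe sets.

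**Figure D2:**
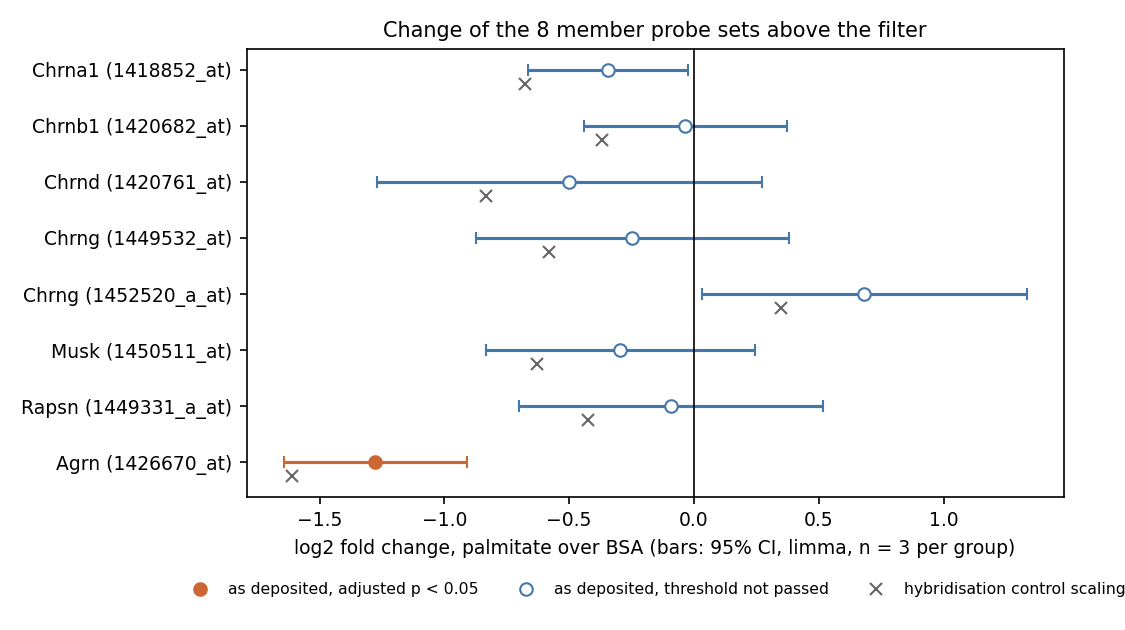
Log2 fold change, palmitate over BSA (x axis), of the 8 member probe sets above the filter, with 95% confidence intervals from limma (n = 3 per group). The filled point marks Agrn at -1.28, which passed the threshold, and grey crosses give the value when arrays are scaled to the hybridisation controls, which lies 0.33 lower for every probe set.

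The arrays had been scaled to equal average signal before deposit, and this scaling bears on the small values here. The 9 hybridisation control probe sets read control RNAs added in fixed amount at the hybridisation step. They were brighter with palmitate by 0.33 on the log2 scale, and scaling to them lowers every fold change by that amount. Their mean was 12.82 ± 0.135 on BSA arrays and 13.15 ± 0.143 on palmitate arrays (SD, n = 3). The exact permutation p was 0.1, the smallest that 3 against 3 allows. One BSA array also stood apart in muscle transcripts. Of 20 myotube marker genes, all above the filter, 19 had their highest signal on BSA replicate 1, where their summed signal was 407898, against 258843 and 290873 on the other BSA arrays and 290618 to 305305 on the palmitate arrays. The same array held the highest signal of 5 of the 7 member genes tested, and each tested member's value without it is given below. RNA quality was read from the Gapdh control probe sets at both ends of the transcript, whose 3'-over-5' log2 ratio averaged 0.27 ± 0.073 on BSA arrays and 0.068 ± 0.24 on palmitate arrays (SD, n = 3, exact permutation p = 0.2) and was lowest on palmitate replicate 2.

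**Figure D3:**
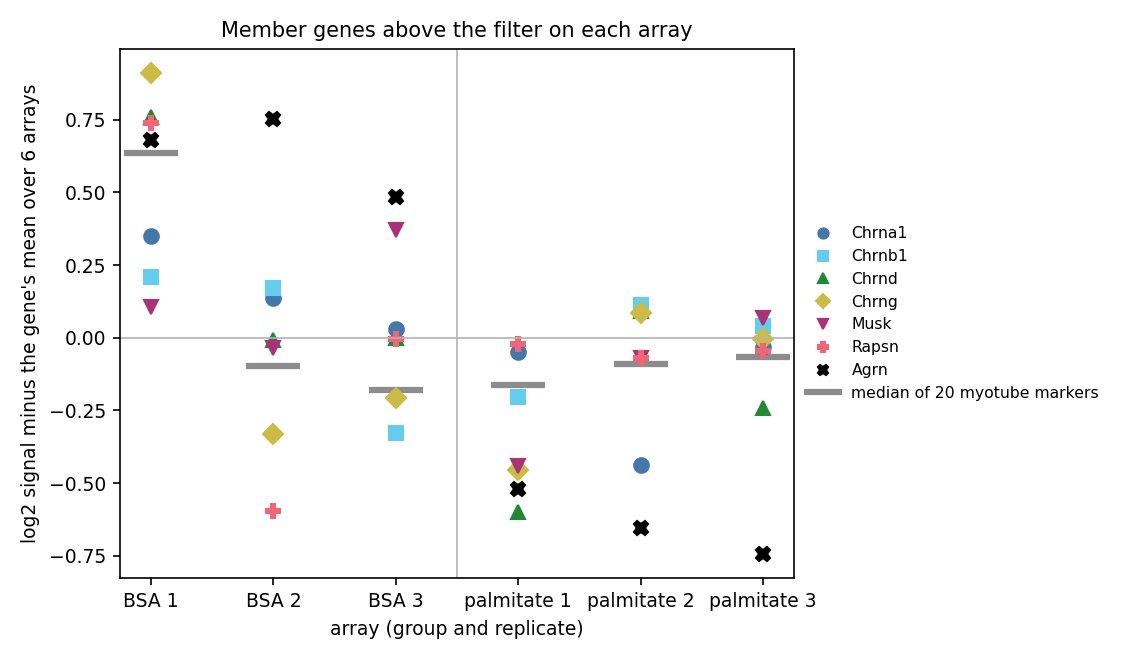
Log2 signal of the 7 member genes above the filter, each minus its own mean over the 6 arrays (y axis), on each array (x axis), with grey bars for the median of 20 myotube markers treated the same way. BSA replicate 1 carries the highest bar, 0.63, and the highest points of Chrna1, Chrnb1, Chrnd, Chrng and Rapsn, whereas Agrn (black crosses) is high on all 3 BSA arrays.

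Agrin is the large heparan sulfate proteoglycan that starts postsynaptic differentiation. Motor neurons secrete the spliced form active in clustering, and muscle secretes forms with little clustering activity, which a probe set for the gene does not tell apart. The Agrn signal (probe set 1426670_at) was 3293, 3459.4 and 2876.1 on BSA replicates 1 to 3 and 1433.9, 1306.5 and 1227.9 on palmitate replicates 1 to 3. Every palmitate array lay below every BSA array, and the lowest BSA signal was 2.01 times the highest palmitate signal. The means were 3210 ± 300.5 and 1323 ± 104 (SD, n = 3), and the log2 fold change was -1.28 ± 0.17 (SE, limma adjusted p = 0.000315). It was -1.26 without BSA replicate 1 and between -1.35 and -1.22 on leaving out any array (limma adjusted p up to 0.00412), and -1.61 after scaling to the hybridisation controls. Agrn passed under every setting tried, and its fold change was nearly as large without the array that was rich in muscle transcripts.

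Among all genes tested, the 3 whose profile over the 6 arrays was most like that of Agrn, by the root mean square difference of log2 signals after centring each gene, were Timp3, an inhibitor of matrix metalloproteinases (0.041), Jpt1 (0.077) and the interferon-inducible GTPase gene Igtp (0.082). They were picked from 7930 genes for this likeness, and their log2 fold changes were -1.33, -1.29 and -1.22. The likeness holds for their brightest probe sets. The other probe sets of Jpt1 gave -0.12 (limma adjusted p = 0.751) and -0.67 (adjusted p = 0.0304), and those of Timp3 ranged from -1.69 to -0.28. Marker genes of fibroblasts and of dividing myoblasts were also lower with palmitate. All 5 fibroblast markers above the filter fell (100%, beside 20.2% of all genes), with limma adjusted p up to 0.00377. These were the collagen genes Col1a1 (-2.31), Col1a2 (-1.63) and Col3a1 (-1.89), Pdgfra (-1.67) and Dcn (-1.27). Their summed signal was 94037 to 115542 with BSA and 26676 to 31638 with palmitate, while Thy1 and Lum lay below the filter. Of 6 markers of undifferentiated myoblasts, Mki67 (-1.59), Top2a (-1.12), Cdk1 (-0.997) and Vcam1 (-0.51) fell and Myf5 (-0.24) and Cdh15 (-0.44) did not pass. This is 66.7% against 20.2% of all genes. The summed signal of the 6 was 29353 to 34113 with BSA and 17476 to 19152 with palmitate. Pax7 and Pax3 of this list lay below the filter, and Ccnb1 had no probe set of its own. The Vcam1 call ended without BSA replicate 2 or 3 or palmitate replicate 2 or 3 (adjusted p up to 0.133), and that of Top2a ended with its probe sets averaged (-0.48, adjusted p = 0.453). Without BSA replicate 1, Myf5 was -0.55 and Cdh15 -0.20. The cultures were of a single line, and which cells in them gave these transcripts was not tested. The part of either list in the Agrn result was not tested. In RNA from a whole culture, fewer dividing myoblasts and less RNA per cell cannot be told apart.

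The promoter of Agrn at its upstream RefSeq start (GRCm38.p6, chr4:156197439-156197738, minus strand) is shown because Agrn is the member that fell. It covers 250 bases before the start to 50 after it, 5′ to 3′, and capitals mark GC boxes (GGGCGG on either strand), a motif bound by Sp1-family factors that was added to the search after the sequence was seen. Adjoining capitals can hold more than 1 match.
Agrn: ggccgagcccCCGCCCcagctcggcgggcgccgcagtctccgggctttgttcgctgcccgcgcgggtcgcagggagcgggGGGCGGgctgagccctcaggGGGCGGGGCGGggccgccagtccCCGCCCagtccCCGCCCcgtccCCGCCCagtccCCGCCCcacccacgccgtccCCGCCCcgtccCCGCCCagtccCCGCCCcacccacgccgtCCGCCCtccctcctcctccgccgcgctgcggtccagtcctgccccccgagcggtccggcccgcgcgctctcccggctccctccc
This window held 12 GC boxes and was 83.3% G and C, against a median of 52.7% over 32851 windows of the same length, of which 35.7% held a GC box. It held no E-box (CANNTG, its own reverse complement), which 72.3% of all windows held. A window at a second, downstream start of Agrn held 2 GC boxes and 1 E-box. GC boxes were not particular to Agrn among the members. The windows of Chrnb1, which did not pass, and Ache, which was not tested, held 4 each.

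The receptors and the scaffold that act downstream of agrin did not pass. Musk, the kinase that carries the agrin signal into the muscle fibre, had signals of 775.7, 703 and 931 with BSA and 529.8, 686.3 and 755.4 with palmitate. The groups overlapped, since palmitate replicate 3 lay above BSA replicate 2. The log2 fold change was -0.30 ± 0.25 (SE, n = 3, limma adjusted p = 0.449), and its 95% interval ran from -0.84 to 0.24, so a fall of up to 1.78-fold is within it. The value was -0.32 without BSA replicate 1 and -0.15 without palmitate replicate 1 (adjusted p = 0.768). Rapsn, which encodes the protein that links receptors to each other and to the cytoskeleton, had signals of 2604.7, 1030.4 and 1552.7 with BSA. Its palmitate signals of 1534.8, 1486 and 1511 lay within the BSA range and close together. The log2 fold change was -0.091 ± 0.28 (limma adjusted p = 0.856, 95% interval -0.70 to 0.52), and without BSA replicate 1 it was 0.26 (adjusted p = 0.479).

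Chrna1 encodes the alpha subunit, which carries the acetylcholine binding sites and the target of alpha-bungarotoxin. Its probe set was among the brightest of the array, at the 98.6th percentile of mean signal. The signals were 27302.9, 23527.7 and 21824 with BSA and 20695.1, 15783.5 and 20947.5 with palmitate. Every palmitate array lay below every BSA array, but the lowest BSA signal was only 1.04 times the highest palmitate signal. The log2 fold change was -0.34 ± 0.15 (SE, n = 3), or 1.27-fold lower with a 95% interval of 1.02 to 1.59, at a limma adjusted p of 0.126. Whether Chrna1 passed depended on the scaling of the arrays. It did so at -0.41 after quantile normalization (limma adjusted p = 0.0379) and at -0.68 after scaling to the hybridisation controls (adjusted p = 0.00612). Without BSA replicate 1 the value was -0.26 (adjusted p = 0.294), and it was lowest in size, at -0.21 (adjusted p = 0.341), without palmitate replicate 2, the array with the low Gapdh ratio.

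Chrnb1, the gene of the beta subunit, through which rapsyn anchors the receptor, had signals of 3293.8, 3204.7 and 2271.9 with BSA and 2474.9, 3076.6 and 2926.7 with palmitate. The palmitate signals all lay inside the BSA range. Its log2 fold change was -0.035 ± 0.19 (limma adjusted p = 0.918). The 95% interval ran from -0.44 to 0.37, or from 1.36-fold down to 1.29-fold up on the deposited scale. The sign turned to 0.061 without BSA replicate 1. The delta subunit gene Chrnd was dim, at the 47.1th percentile. Its signals were 704, 413.2 and 415.2 with BSA and 274.5, 443.1 and 351.9 with palmitate, so that the groups overlapped and BSA replicate 1 was far above the rest. Its log2 fold change was -0.50 ± 0.35 (limma adjusted p = 0.362, 95% interval -1.27 to 0.27), and -0.24 without that array (adjusted p = 0.724).

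Chrng, the gene of the fetal gamma subunit, had 3 probe sets, and they did not move alike. The brightest (1449532_at) gave 5473.7, 2316.2 and 2523.6 with BSA and 2127.2, 3093.6 and 2904.4 with palmitate. BSA replicate 1 was again the highest, and the other BSA arrays lay within the palmitate range. Its log2 fold change was -0.25 ± 0.29 (limma adjusted p = 0.597), and 0.15 without BSA replicate 1 (adjusted p = 0.662). The second probe set (1452520_a_at) gave 929.2, 459.4 and 891.8 with BSA and 1079.3, 1522.1 and 958.2 with palmitate. Here every palmitate array lay above every BSA array, at a log2 fold change of 0.68 ± 0.30 that did not pass (limma adjusted p = 0.135). It was 0.86 without BSA replicate 1 and 0.35 without BSA replicate 2 (adjusted p = 0.427). The third (1427728_at) lay below the filter, at 17.6, 383.3 and 232 with BSA and 134.6, 171.8 and 132.3 with palmitate, a spread that gives no direction. With the probe sets averaged, the value for Chrng was 0.25 (limma adjusted p = 0.551), so these arrays settle no direction for Chrng. Chrng lies next to Chrnd on mouse chromosome 1 in the RefSeq annotation of GRCm38.p6, with no other gene between them.

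The promoters of Chrna1 (chr2:73580289-73580588, minus strand) and Chrng (chr1:87205561-87205860, plus strand) are shown for the E-boxes through which myogenic factors are known to act on subunit genes. They come from RefSeq (GRCm38.p6), span 250 bases before to 50 after the start, 5′ to 3′, and capitals mark each E-box.
Chrna1: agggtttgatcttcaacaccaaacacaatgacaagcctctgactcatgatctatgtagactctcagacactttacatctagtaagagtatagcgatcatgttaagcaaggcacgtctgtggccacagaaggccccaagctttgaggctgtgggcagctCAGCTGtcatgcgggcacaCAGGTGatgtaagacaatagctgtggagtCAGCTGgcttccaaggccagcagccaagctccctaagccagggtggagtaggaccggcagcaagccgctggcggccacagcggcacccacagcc
Chrng: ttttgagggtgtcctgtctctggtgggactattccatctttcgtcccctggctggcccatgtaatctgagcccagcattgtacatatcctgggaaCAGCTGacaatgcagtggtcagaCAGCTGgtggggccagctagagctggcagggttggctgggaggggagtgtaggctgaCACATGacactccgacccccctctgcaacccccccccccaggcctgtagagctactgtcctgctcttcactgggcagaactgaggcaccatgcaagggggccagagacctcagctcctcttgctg
Each window held 3 E-boxes, of which 2 were of the form CAGCTG, which 16.3% of all windows held. Counted from the start, they began at -92 and -44 in Chrna1 and at -155 and -132 in Chrng. The Chrnb1 and Musk windows also held 3 E-boxes each, with the form CAGCTG present at 1 place in Musk and absent from the Chrnb1 window. The N-box (CCGGAA on either strand), which the factor GABP binds in synaptic genes, was in none of the 7 member windows and in 14.9% of all windows. No window was matched for Chrnd and Rapsn. A match describes the letters of the window and is not a measured binding site.

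**Figure D4:**
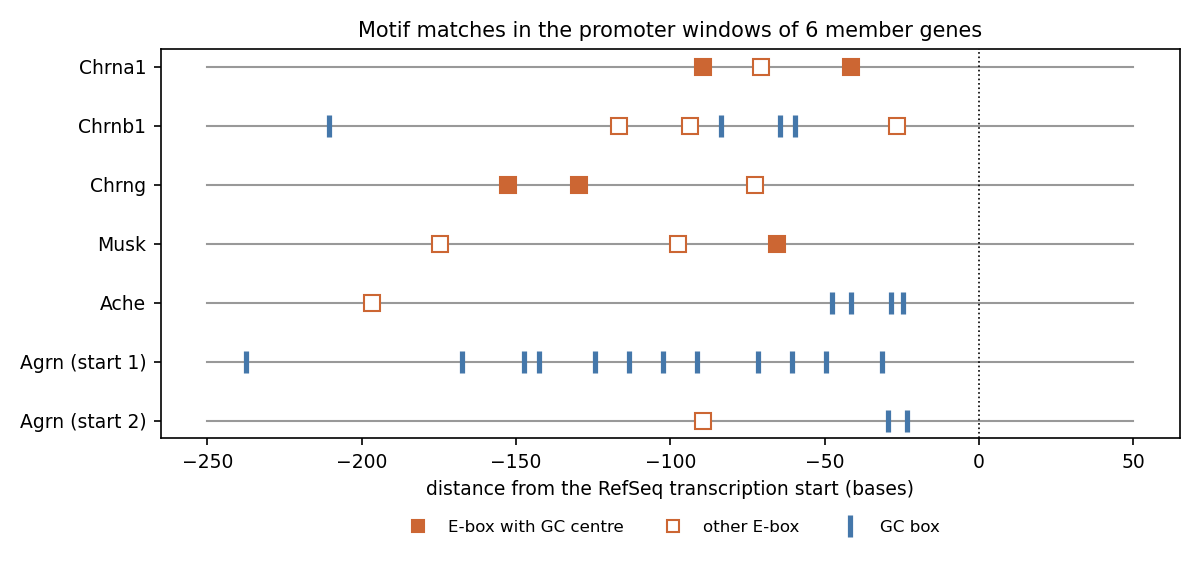
Motif matches in the RefSeq promoter windows of 6 member genes, by distance from the transcription start in bases (x axis), with Agrn shown at both of its starts. Filled squares are E-boxes with a GC centre, open squares other E-boxes and bars GC boxes. The upstream Agrn window holds 12 GC boxes, the Chrnb1 and Ache windows 4 each and the Chrna1, Chrng and Musk windows 0.

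The balance between subunit transcripts was examined on each array, since a ratio of probe sets on the same array does not change when that array is multiplied by a constant. Quantile normalization is no such scaling, and under it the difference for Chrna1 over Chrnb1 was -0.41 in place of -0.31. Over the 6 pairs of subunit genes, the log2 ratio differed between the groups by -0.31 for Chrna1 over Chrnb1 to 0.46 for Chrnb1 over Chrnd. The two-sided exact permutation test of 3 arrays against 3 cannot give a p under 0.1, so it could call none of the pairs. Its raw p ran from 0.2 to 0.8 and its adjusted p from 0.6 to 0.8, and the ratios overlapped between the groups for every pair. For Chrna1 over Chrng, the fetal receptor's alpha and gamma subunits, the difference was -0.097, with an SD of 0.54 among BSA arrays and 0.47 among palmitate arrays. That difference is smaller than the spread within either group, and the design does not settle whether the subunit balance changed.

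Ache encodes the esterase that breaks down acetylcholine. Its only probe set lay at the 19.7th percentile of mean signal, below the filter. The signals were 91.6, 153.7 and 60.3 with BSA and 80.8, 81.5 and 36.1 with palmitate, with the groups overlapping. Fitted without the filter, the log2 fold change was -0.61 ± 0.84 (SE, limma adjusted p = 0.739), with a 95% interval of -2.45 to 1.22 that spans both directions. Genes of other nicotinic subunits and of acetylcholine synthesis, transport and muscarinic receptors were likewise dim, as 15 of the 16 on the array lay below the filter. Among them was Chrne, the adult epsilon subunit, with signals of 23.6, 6.9 and 189.8 with BSA and 13.2, 10.3 and 12.9 with palmitate. The only gene of this list that was tested, the neuronal subunit gene Chrnb2, stood at 0.49 ± 0.40 (limma adjusted p = 0.435).

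Receptor subunits fold and pair in the endoplasmic reticulum before they reach the surface, and transcripts of chaperones that assist this rose. Of 7 genes tested from the list for receptor assembly, 5 rose and 0 fell (71.4%, beside 20.2% of all genes), with a median of 0.59. Hspa5, the chaperone BiP, rose by 1.39 ± 0.14, from 29690 ± 3959 to 77713 ± 9517 (SD, n = 3, limma adjusted p = 4.14e-05). Hsp90b1 rose by 1.22 ± 0.13 and the disulfide isomerase Pdia3 by 1.04 ± 0.20. The lectin chaperones Calr and Canx rose by 0.59 ± 0.12 and 0.58 ± 0.13, and after scaling to the hybridisation controls these last did not pass, at 0.25 (limma adjusted p = 0.248) and 0.24 (adjusted p = 0.287). The Canx call also ended without palmitate replicate 3 (0.48, adjusted p = 0.0573). Ubqln1 (0.034) and Rer1 (-0.012) did not pass by their brightest probe sets. A second probe set of Ubqln1 passed at 0.83 (limma adjusted p = 0.0102). With its probe sets averaged, Ubqln1 was 0.40 and did not pass (adjusted p = 0.270). These chaperones serve secreted and membrane proteins in general, and none of the subunit genes described above passed the test.

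Of 17 genes that relay the agrin signal through MuSK, Abl1, a tyrosine kinase that binds MuSK, fell by 0.80 ± 0.24 (limma adjusted p = 0.0343) and 0 rose, which is 5.88% against 20.2% of all genes, at a median of 0.00036. The Abl1 call ended without BSA replicate 1, BSA replicate 2 or palmitate replicate 1 (adjusted p up to 0.120). Lrp4, the agrin receptor, had signals of 849.2, 1425.7 and 1211.2 with BSA and 1009.6, 542.9 and 792.4 with palmitate, which overlapped. Its log2 fold change of -0.59 ± 0.28 did not pass (limma adjusted p = 0.170), though it did after scaling to the hybridisation controls, at -0.92 (adjusted p = 0.0262). The kinase Src (0.91 ± 0.35, adjusted p = 0.0882) and the MuSK-binding cochaperone Dnaja3 (0.41 ± 0.16, adjusted p = 0.0950) had an unadjusted p under 0.05 and did not pass. Single arrays moved Lrp4 to -0.35 (without palmitate replicate 2) and Src to 0.49 (without BSA replicate 3, adjusted p = 0.260), and after scaling to the hybridisation controls Src was 0.58 and Dnaja3 0.081. A second probe set of Dnaja3 passed at 0.97 (adjusted p = 0.0110).

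Among 14 factors that set transcription of synaptic genes, 3 fell and 1 rose (28.6%, beside 20.2% of all genes), with a median of -0.24. At an unadjusted p under 0.05, the deacetylase gene Sirt1 was also above 0 (0.57 ± 0.24, limma adjusted p = 0.117, and 0.34 without BSA replicate 1). Myod1, the gene of MyoD, was 2.51-fold lower, at 5575.4, 4973.5 and 4579.4 with BSA and 1852.7, 2122.7 and 2041.2 with palmitate. The groups were far apart (log2 fold change -1.33 ± 0.16, limma adjusted p = 0.000139), and without BSA replicate 1 the value was -1.25. Myog, the gene of myogenin, stood at -0.019 ± 0.16 (adjusted p = 0.952), with palmitate signals of 19465 to 20416 inside the BSA range of 16098 to 25800. It was 0.16 without BSA replicate 1 (adjusted p = 0.473). The inhibitors of myogenic factors Id2 and Id3 had values of -0.79 ± 0.25 (adjusted p = 0.0408) and -0.82 ± 0.22 (adjusted p = 0.0234). Both calls were fragile. That of Id2 ended without any array but BSA replicate 1 or palmitate replicate 1. That of Id3 ended without BSA replicate 1, BSA replicate 3, palmitate replicate 1 or palmitate replicate 3. The Id2 call also ended with its probe sets averaged (-0.64, adjusted p = 0.268), and a second Id2 probe set stood at 0.35 (adjusted p = 0.769). Gabpb1, the beta chain of GABP, rose by 0.71 ± 0.18 (adjusted p = 0.0174). Its call ended without BSA replicate 2, palmitate replicate 2 or palmitate replicate 3 (adjusted p up to 0.0705) and after hybridisation control scaling (0.37, adjusted p = 0.257).

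Of 16 genes of the synaptic scaffold and basal lamina, 3 fell and 0 rose (18.8%, beside 20.2% of all genes), and at an unadjusted p under 0.05 limma gave 5 lower and 0 higher. Nid2, a nidogen enriched in synaptic basal lamina, had signals of 3354.2, 4286.5 and 3535.5 with BSA and 1310, 997.1 and 1303.1 with palmitate. It was 3.10-fold lower (limma adjusted p = 0.000107), with no overlap. Ncam1, the neural cell adhesion molecule that uninnervated myotubes display, fell by 1.29 ± 0.18 by its brightest probe set (adjusted p = 0.000461). Its 5 probe sets ranged from -1.29 to -0.36, of which 2 passed, and their average did not (-0.71, adjusted p = 0.0664). Dag1, the dystroglycan that binds agrin and laminin, fell by 0.60 ± 0.18 (adjusted p = 0.0404), a call that ended without any array but BSA replicate 3 (adjusted p up to 0.136) and with its probe sets averaged (-0.41, adjusted p = 0.166). The laminin chain gene Lama2 (-0.84 ± 0.28, adjusted p = 0.0581) and Sspn, which encodes sarcospan of the dystrophin complex (-0.74 ± 0.26, adjusted p = 0.0708), did not pass. Sspn passed without BSA replicate 1 (-0.92, adjusted p = 0.0424) or palmitate replicate 2 (-0.98, adjusted p = 0.0225), and both passed after hybridisation control scaling (-1.17 for Lama2 and -1.08 for Sspn). Utrn, the synaptic homologue of dystrophin, stood at -0.23 ± 0.19, and at -0.060 without palmitate replicate 2.

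**Figure D5:**
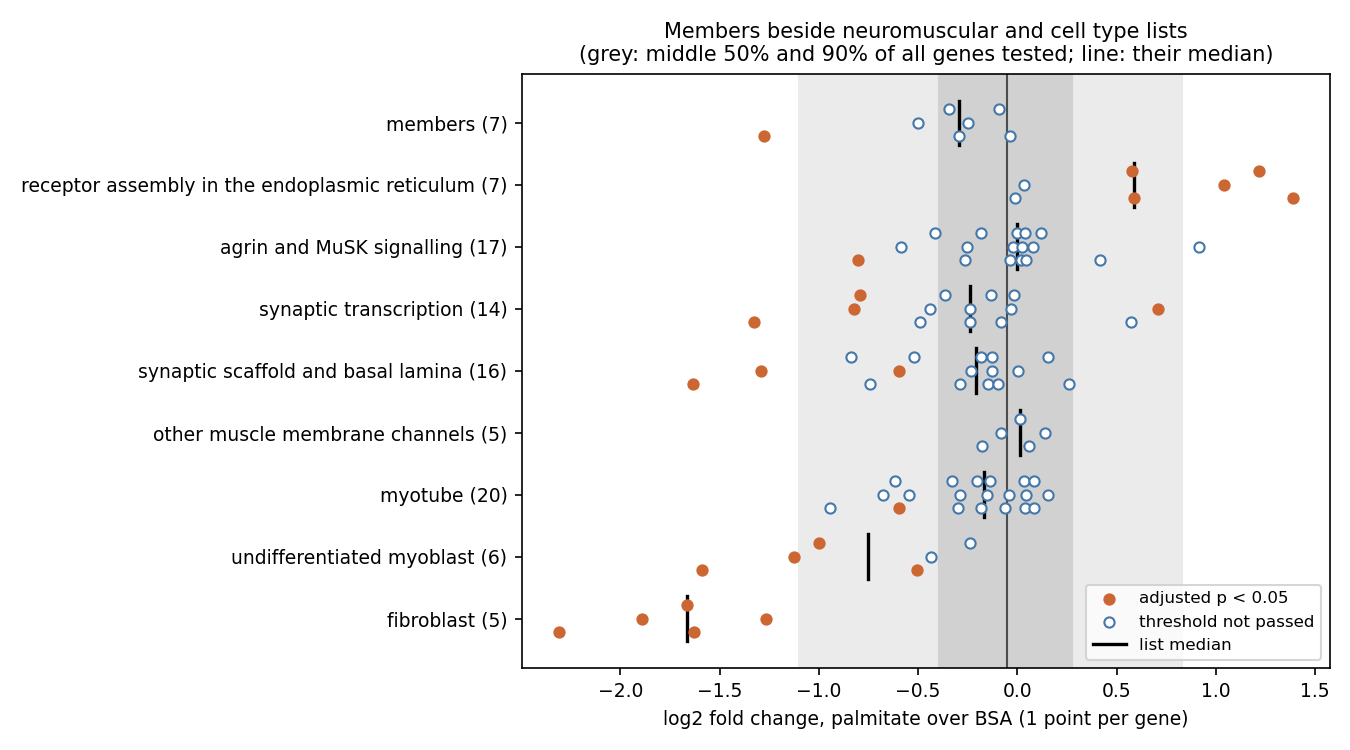
Log2 fold change, palmitate over BSA (x axis), of each tested gene of the members and of 8 other gene lists (rows, with the number of genes tested), as filled points where the limma adjusted p is under 0.05 and open points where it is not. Black ticks are list medians, and the grey bands hold the middle 50% and 90% of all genes tested. Of the members only Agrn lies outside the 90% band. Filled points include 5 of 7 genes of receptor assembly on the right and all 5 fibroblast markers on the left.

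Transcripts of other muscle membrane channels and of the contractile apparatus were compared beside the receptor. Of 5 channel genes tested, 0 passed with limma (beside 20.2% of all genes), and 0 had an unadjusted p under 0.05. They were Cacna1s (0.058) and Ryr1 (0.015) of excitation-contraction coupling and the calcium channel chains Cacnb1 (0.14), Cacng1 (-0.18) and Cacna2d1 (-0.084). Without BSA replicate 1 these 5 values were 0.44, 0.31, 0.64, 0.12 and 0.26, all above 0, so that Cacng1 and Cacna2d1 turned sign. Of 20 myotube markers, the calcium pump gene Atp2a1 fell by 0.60 ± 0.18 (limma adjusted p = 0.0375) and 0 rose. This is 5% against 20.2% of all genes. The median of the 20 was -0.17 and became 0.034 without BSA replicate 1. The Atp2a1 call ended without any array but BSA replicate 3 (adjusted p up to 0.105). The next smallest p-values were those of Actn2 (-0.94), Ttn (-0.68) and Tnnt1 (-0.55), with adjusted p from 0.0758 to 0.158. Without BSA replicate 1 these were -0.66, -0.51 and -0.19, while Ttn was -0.43 without palmitate replicate 1 and passed without palmitate replicate 3 (-0.96, adjusted p = 0.0211). The actin gene Acta1 stood at 0.083, and at 0.22 without BSA replicate 1. After scaling to the hybridisation controls 8 of the 20 markers passed, all lower, at a median of -0.50. That scaling lowers every value by 0.33. Of all 13575 probe sets tested, it gave 3169 lower and 404 higher. Of the markers of neurons and of Schwann cells on the array, 4 of 7 and 3 of 5 lay above the filter. Of those above it, 25% and 0% passed, beside 20.2% of all genes. Stmn2 fell by 1.08 ± 0.24 (adjusted p = 0.00952) and no other of these passed, with values of -1.05 for Nefl, 1.23 for Syn1, 0.50 for Tubb3, 1.24 for Gfap, -0.37 for Erbb3 and 0.40 for Sox10 (adjusted p from 0.0619 to 0.496). These values were not stable. After scaling to the hybridisation controls, Nefl (-1.38, adjusted p = 0.0246) and Erbb3 (-0.70, adjusted p = 0.0244) passed, as did Nefl without palmitate replicate 1 (-1.41) and Gfap with no intensity trend (adjusted p = 0.0142). Without BSA replicate 2, Syn1 was 0.14 and Sox10 0.058. The summed signal of the neuron list was 1882 to 2365 with BSA and 1319 to 2124 with palmitate, and that of the Schwann cell list 3662 to 4723 and 3534 to 3798. The cultures were of a single muscle line, and which cells these transcripts came from was not tested. The part of these transcripts in the results above was not tested.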

How the data were processed

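RNA of 3 BSA and 3 palmitate samples (labelled from 10 µg of total RNA) was measured on Affymetrix mouse 430A arrays per the labels' protocols. Each probe set has 1 deposited value per array, a linear signal intensity that the authors computed with MAS5 per the submitters' processing notes (the settings are not given in the sources used here). Its 2% trimmed mean was 1500.5 to 1500.56 on every array, so the authors had scaled them. No detection call and no scan date was used.

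Of 22690 probe sets, 64 were controls, 20380 had 1 gene symbol in the platform annotation, 691 several and 1555 none. The log2 of the signal was taken without an offset. Of all probe sets, 13575 had a mean log2 signal over its 40th percentile (signal 267.1) and were tested, and 2609 passed. Group means were compared in R 4.3.3 by limma 3.58.1, with lmFit and with eBayes following the trend on mean signal. Two-sided p-values were adjusted over the tested probe sets by Benjamini-Hochberg, at a threshold of 0.05. A fold change is palmitate over BSA with its SE. A gene was represented by its brightest probe set. Subunit ratios were compared by exact permutation, adjusted over 6 pairs. Every probe set of the members was named, with up to 4 genes of each list by smallest p, any gene within a count of 5 or fewer and the 3 genes most like Agrn in profile. Acta1, Myog, Utrn and Chrne were named after their values were seen. The members and lists were chosen with earlier results of these data known. Promoters were from RefSeq (GRCm38.p6) for 6 members, matched by symbol. The fit was tested on simulated data. Alternatives were other scalings, filters, an offset of 50, no trend, probe set averages, the replicate block and leaving out each array.

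The labels do not say whether a replicate number pairs a BSA array with a palmitate array. Deviations from the group means correlated at -0.23, -0.13 and 0.0091 for numbers 1 to 3. For unlike numbers the correlations ran from -0.15 to 0.26. With 3 arrays per group these values cannot decide whether the arrays were paired.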

Additional observations from a re-analysis of the deposited data

How the results depend on the processing

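Agrn passed and fell under every alternative. The count of member genes past the threshold was 1 throughout, apart from 2 after quantile normalization and 2 after hybridisation control scaling, where Chrna1 also passed, and it was 1 on leaving out any array. The replicate block ended the calls of Abl1 (adjusted p = 0.0502), Id2 (0.0717), Dag1 (0.0772), Atp2a1 (0.0725) and Vcam1 (0.0988), Sspn then passed (0.0464), it changed no call of a member or of another named gene, and the count over all probe sets went from 2609 to 1973. The list of agrin and MuSK signalling gave 1 call, but 4 after hybridisation control scaling, 0 with no filter, 0 with no intensity trend, 0 with the replicate block and 2 with probe sets averaged. The scaffold list went from 3 to 6 and the assembly list from 5 to 3 after hybridisation control scaling, and the transcription list from 4 to 2 with no intensity trend. On leaving out 1 array these 4 lists gave 0 to 1, 2 to 3, 4 to 5 and 1 to 3 calls, and the count over all probe sets was 1575 (without BSA replicate 2) to 2339. After hybridisation control scaling there were 404 higher and 3169 lower probe sets in place of 1172 and 1437, a scaling that moves the median of all genes by 0.33 down. Quantile normalization, tried for the subunit ratios after seeing the data, gave differences from -0.41 (Chrna1 over Chrnb1) to 0.49 (Chrnb1 over Chrnd), with adjusted p from 0.6 to 1. Among the named genes signs turned after hybridisation control scaling for Cacnb1 (-0.20), Cacna1s (-0.28), Ryr1 (-0.32), Ubqln1 (-0.30) and Acta1 (-0.25). They turned with median scaling for Rer1 (0.014) and Myog (0.0068), and with 75th percentile scaling for Rer1 (0.017) and Myog (0.0099). With quantile normalization Rer1 turned (0.013). With probe sets averaged signs turned for Rer1 (0.16), Chrng (0.25), Cacna2d1 (0.35), Erbb3 (0.46) and the ratio of Chrnb1 over Chrng (-0.29). None of these was called, and the cause was not tested. On leaving out 1 array the ratio differences ranged from -0.083 to 0.46 for Chrna1 over Chrnd, -0.40 to 0.14 for Chrna1 over Chrng and -0.085 to 0.52 for Chrnb1 over Chrng. The log2 fold changes ranged from -0.21 to 0.061 for Chrnb1, -0.48 to 0.15 for Chrng (brightest probe set), -0.41 to 0.26 for Rapsn, -0.40 to 0.12 for Cacng1, -0.27 to 0.64 for Cacnb1, -0.47 to 0.26 for Cacna2d1, -0.20 to 0.44 for Cacna1s, -0.24 to 0.31 for Ryr1, -0.026 to 0.081 for Ubqln1, -0.12 to 0.17 for Rer1, -0.55 to 0.0034 for Myf5, -0.18 to 0.16 for Myog and -0.039 to 0.22 for Acta1. The stricter filter left Chrnd and Musk untested. Dim signals limit Ache and the third Chrng probe set, whose intervals span both directions.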
